A study of Mus musculus with 9 samples.

Results

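The genes described here are 10 mouse genes of antioxidant defence and iron storage, out of 51717 genes to which the deposited transcript values could be summed. They are the transcription factor gene Nfe2l2, the antioxidant and detoxification genes Gclc, Gclm, Srxn1, Txnrd1, Nqo1 and Hmox1, the glutathione peroxidase gene Gpx4, and the ferritin genes Fth1 and Ftl1. They were taken by name, with earlier results of these data known, and all 10 were found and passed the filter on low counts. The RNA came from B16F10, a mouse melanoma cell line grown in DMEM with serum, in a Sirpa knockdown line, a Sirpa overexpression line and a non-target control line. Each line has 3 libraries, given as biological repeats, and the study compared how the level of Sirpa, a receptor for CD47, related to the transcriptome. Each condition is 1 line: the labels say neither how the lines were made, nor whether they are clones or pools, nor whether the overexpression line has a matched vector control. The p-values below therefore measure the spread between cultures of a line, and Sirpa level and other differences between lines cannot be told apart.

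Sirpa itself had 112 to 118 CPM (counts scaled to library size) in the knockdown libraries and 895 to 914 CPM in the overexpression libraries, against 289 to 303 CPM in the control libraries. All 7 melanocyte markers were tested, and their summed level was 16500 to 17140 CPM in the knockdown, 18450 to 18880 CPM in the overexpression and 16910 to 17120 CPM in the control libraries. By edgeR 4 of the 7 (Mitf, Sox10, Dct and Pmel) were called lower and Tyrp1 higher in the knockdown line, and Mitf and Sox10 were called lower and Tyr and Tyrp1 higher in the overexpression line. Of the 10 macrophage markers 2 passed the filter, the highest sum in any library was 4.98 CPM, and Ptprc, Adgre1 and Tyrobp were at 0 in all 3 lines. The sum of 7 fibroblast markers was 17.2 to 19.0 CPM in the knockdown, 73.5 to 83.1 CPM in the overexpression and 64.0 to 67.0 CPM in the control libraries. Of these 7, 3 were tested. Col1a1 averaged 4.95 CPM in the knockdown, 66.4 CPM in the overexpression and 55.6 CPM in the control libraries. It was called lower in the knockdown line (log2 -3.61 to -3.40 under 18 alternative settings) and higher in the overexpression line, a call lost under 5 of 18. Col1a2, at 8.62 CPM in the knockdown and 8.39 CPM in the overexpression libraries against 5.27 CPM in the control libraries, was called higher in both lines. These Col1a2 calls were lost under 3 of 18 settings in the knockdown and 4 of 18 in the overexpression line. Mitochondrially encoded genes took 2.36 to 2.57% of counts in the knockdown and 2.37 to 2.51% in the overexpression libraries, against 2.14 to 2.17% in the control libraries. Ribosomal protein genes took 3.85 to 4.15% in the knockdown and 3.94 to 4.14% in the overexpression libraries, against 4.73 to 4.80% in the control libraries. The part of these shifts in the results below was not tested.

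Nfe2l2 encodes NRF2, a transcription factor that KEAP1 marks for destruction in unstressed cells. When reactive compounds modify KEAP1, NRF2 builds up, pairs with small MAF proteins and binds antioxidant response elements near genes for glutathione synthesis, thioredoxin reduction, quinone and heme breakdown, and ferritin. Most of this control acts on NRF2 protein, which RNA does not measure. Ferritin is a shell of heavy and light chains that holds iron: the heavy chain oxidises iron for entry and the light chain helps the mineral core form. Its translation is held back in iron-poor cells by regulatory proteins that bind a hairpin, the iron-responsive element, near the start of the ferritin mRNAs.

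The sequences of 2 promoters are shown because their genes, Gclm and Srxn1, had the largest differences from control in the knockdown line among the 10. They are the 250 bases before the gene start in RefSeq's GRCm38.p6 annotation, on the + strand at chr3:122245307-122245556 for Gclm and chr2:152105274-152105523 for Srxn1. Capitals mark matches on either strand to the core of the antioxidant response element, searched as TGACNNNGC and TGAGNNNGC.
Gclm: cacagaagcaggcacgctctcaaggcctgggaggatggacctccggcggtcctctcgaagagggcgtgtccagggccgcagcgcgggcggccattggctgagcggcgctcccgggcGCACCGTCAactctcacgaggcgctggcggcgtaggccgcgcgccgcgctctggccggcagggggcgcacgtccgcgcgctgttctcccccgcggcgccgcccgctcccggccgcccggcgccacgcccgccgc
Srxn1: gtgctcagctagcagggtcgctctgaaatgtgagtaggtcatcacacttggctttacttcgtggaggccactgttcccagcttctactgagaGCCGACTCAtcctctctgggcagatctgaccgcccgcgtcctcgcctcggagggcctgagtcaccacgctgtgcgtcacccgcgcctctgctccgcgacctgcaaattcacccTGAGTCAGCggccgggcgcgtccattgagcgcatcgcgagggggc
In Gclm the match begins 134 bases before the start, and in Srxn1 the matches begin 158 and 45 bases before it. Srxn1 had another, GCTAGGTCA, 29 bases past the start. Windows of 300 bases, from 250 before to 50 after the start, were at hand for 8 of the 10 genes. A match stood in those of 4, Gclm, Srxn1, Nfe2l2 (TGACTCCGC) and Txnrd1 (GCTTTGTCA), and in those of Nqo1, Gpx4, Fth1 and Ftl1 there was none. Hmox1 and Gclc had no window. Sequence outside the windows was not searched, so these genes may hold elements farther from the start. Across all 32851 RefSeq windows 12.39% held the first form, 17.65% the second and 27.79% either, so a match is common and is a description, not a binding site.

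The ferritin mRNAs carry the hairpin by which iron sets their translation, and the same kind of element stands in Slc40a1, the iron exporter ferroportin. The stretches below come from GENCODE M21 transcripts (GRCm38), on mouse chromosomes 19, 7 and 1, with the loop letters CAGTGN in capitals.
Fth1: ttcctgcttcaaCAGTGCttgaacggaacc
Ftl1: gtcttgcttcaaCAGTGTttgaacggaaca
Slc40a1: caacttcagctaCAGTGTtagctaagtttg
The element, whose first base lies inside each printed stretch, begins at base 93 of Fth1-201, base 84 of Ftl1-201 and base 96 of Slc40a1-201. Searched on the transcript strand as C, 5 bases, CAGTGN and 5 bases that pair with the first 5, the element stood in the first 250 bases of a transcript in 34 of 21901 coding genes (0.155%).

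Levels between the 10 genes were compared in TPM, which allow for transcript length as well as library size. Ftl1 was the most abundant of all genes in the control line by this measure, at 12368 ± 734 TPM in the knockdown, 13491 ± 161 TPM in the overexpression and 13590 ± 49.8 TPM in the control libraries (SD, n = 3 each). Fth1 ranked 15 in the control line, with 4691 ± 237 TPM in the knockdown, 6368 ± 216 TPM in the overexpression and 4599 ± 64.0 TPM in the control libraries (SD, n = 3 each). Both ferritin genes thus stood far above the other 8 genes. Gpx4 followed with 751 ± 93.1 TPM in the knockdown, 568 ± 36.0 TPM in the overexpression and 541 ± 8.996 TPM in the control libraries (SD, n = 3 each). Txnrd1, Hmox1, Gclm, Nfe2l2, Srxn1 and Gclc came next in the control line, between 275 and 24.8 TPM. Nqo1 was lowest, at 9.17 ± 0.931 TPM in the knockdown, 10.8 ± 1.48 TPM in the overexpression and 9.73 ± 1.52 TPM in the control libraries (SD, n = 3 each).

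Differences between lines were tested on counts in edgeR by quasi-likelihood, with p-values adjusted by Benjamini-Hochberg over 13064 genes. A gene was called at an adjusted p under 0.05. In the knockdown line 7 of the 10 genes were called against control, where 35.4% of all genes were called. Of the 7, 6 were higher (Nfe2l2, Gclc, Gclm, Srxn1, Hmox1 and Gpx4), against 18% of all genes, and 1 was lower (Ftl1), against 17.4%. In the overexpression line 6 of the 10 were called against control, where 24.3% of all genes were called. All 6 were higher (Gclc, Gclm, Srxn1, Txnrd1, Hmox1 and Fth1), against 13.1% of all genes. The median log2 fold change of the 10 was 0.20 for knockdown over control, where that of all genes was -0.0077, and 0.27 for overexpression over control, where that of all genes was -0.0012. The shares of all genes cover tested genes of every level, while several of the 10 were abundant. In control TPM Ftl1, Fth1, Gpx4 and Txnrd1 stood above 96% of tested genes, Gclc above 58.8% and Nqo1 above 36.3%. The part of level in the shares called was not tested. Both lines were set against the same 3 control libraries, so their results are not independent of each other. In bulk RNA a large change in some cells and a small one in all cells cannot be told apart.

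**Figure D1:**
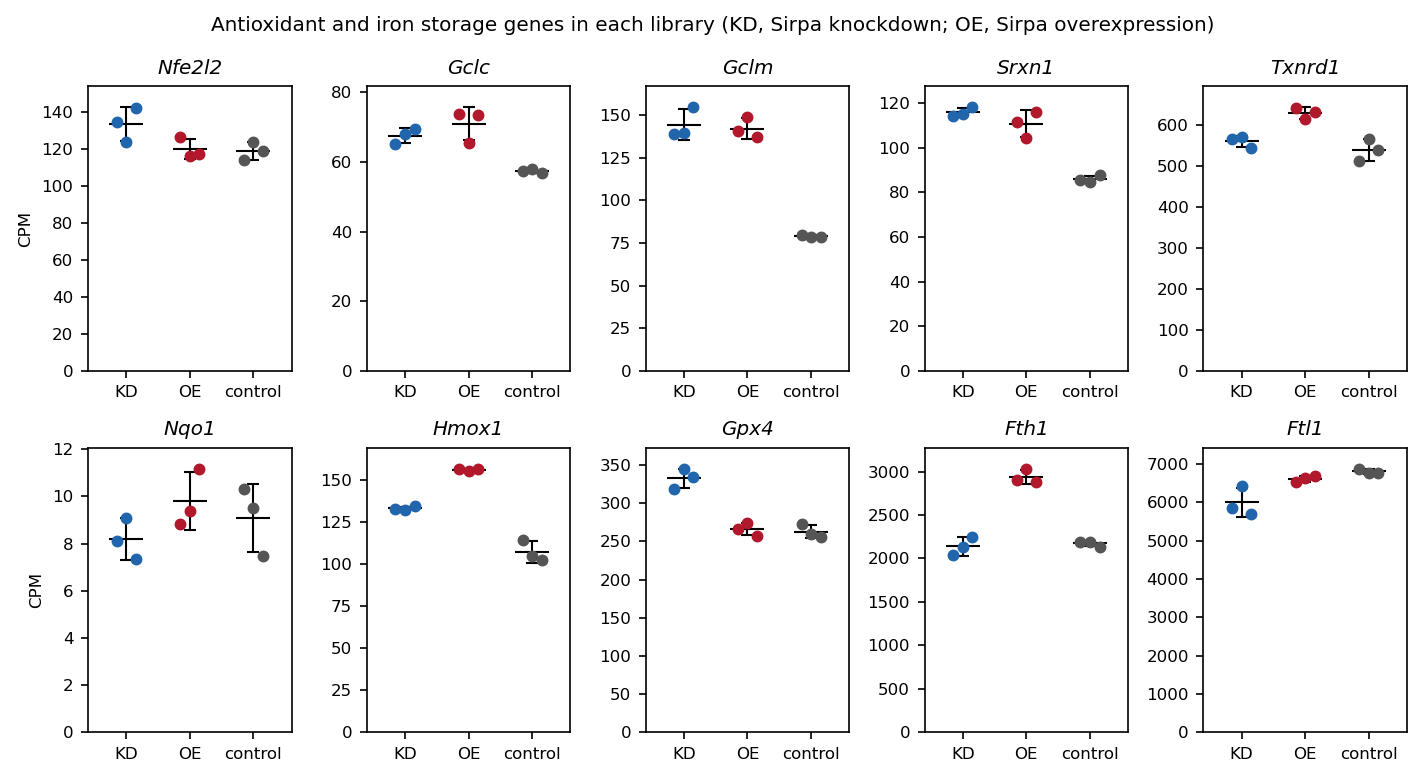
Level of each of the 10 genes in CPM (vertical axes, from 0) in the knockdown (KD), overexpression (OE) and control libraries; points are libraries, horizontal bars means and error bars 1 SD (n = 3 each). Gclm is at 137 CPM or more in all 6 knockdown and overexpression libraries and at 78.6 to 79.8 CPM in the control libraries, and Fth1 stands apart in the overexpression line.

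Nfe2l2, the gene for NRF2, had 135, 124 and 142 CPM in the knockdown libraries, 127, 116 and 118 CPM in the overexpression libraries, and 114, 124 and 119 CPM in the control libraries. The knockdown libraries were all higher than the control libraries, the lowest of them by less than 0.1 CPM, and the overexpression and control libraries overlapped. The log2 fold change was 0.17 ± 0.06 (SE) in the knockdown line (edgeR adjusted p = 0.0321) and 0.01 ± 0.06 in the overexpression line (edgeR adjusted p = 0.895, 95% interval -0.11 to 0.14). The knockdown call was not stable: it was lost without control replicate 1 (edgeR adjusted p = 0.126), control replicate 3 (0.0762), knockdown replicate 1 (0.0752) or knockdown replicate 3 (0.128), and with an offset for average transcript length (0.0669). Nfe2l2 was 0.15 ± 0.06 lower on the log2 scale in the overexpression than in the knockdown line, which missed the threshold (edgeR adjusted p = 0.0678). Nfe2l2-201 held 92.6 to 96.3% of Nfe2l2 TPM in the knockdown, 94.4 to 95.4% in the overexpression and 95.9 to 97.3% in the control libraries. Keap1, whose product destabilises NRF2, averaged 59.7 ± 5.57 CPM in the knockdown, 66.2 ± 3.09 CPM in the overexpression and 59.0 ± 3.11 CPM in the control libraries (SD, n = 3 each) and was not called in any comparison.

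Gclc and Gclm encode the catalytic and modifier subunits of glutamate-cysteine ligase, the rate-limiting enzyme of glutathione synthesis. Gclm had 139, 139.5 and 155 CPM in the knockdown libraries, 140.5, 149 and 137 CPM in the overexpression libraries, and 79.8, 78.6 and 78.7 CPM in the control libraries. Every knockdown and overexpression library lay well above every control library, and the knockdown and overexpression libraries overlapped. Gclm was 1.82-fold higher in the knockdown line (log2 0.87 ± 0.05, edgeR adjusted p = 5.48e-09) and 1.80-fold higher in the overexpression line (log2 0.85 ± 0.05, edgeR adjusted p = 1.78e-08), the largest changes among the 10 genes in both. Between the overexpression and knockdown lines it differed by -0.02 on the log2 scale, with a 95% interval of -0.13 to 0.09. Gclc had 65.1, 68.1 and 69.4 CPM in the knockdown libraries, 73.9, 65.5 and 73.6 CPM in the overexpression libraries, and 57.3, 58.0 and 56.9 CPM in the control libraries. Its control libraries too lay below all others, by a smaller margin. Gclc was 1.18-fold higher in the knockdown line (log2 0.23 ± 0.07, edgeR adjusted p = 0.0112) and 1.24-fold higher in the overexpression line (log2 0.31 ± 0.07, edgeR adjusted p = 0.00273). The RNA of the catalytic and of the modifier subunit thus rose in both lines, with the larger fold change for the modifier.

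Salmon divided the Gclm reads among several transcripts. The non-coding Gclm-202 took 5.77 to 24.4% of Gclm TPM in the knockdown, 23.5 to 26.3% in the overexpression and 23.8 to 32.6% in the control libraries. Of its 31-base words 36.48% also occur in other genes, Ppia among them, so reads of those genes could be placed on it. Without Gclm-202 the log2 fold change of Gclm was 0.95 in the knockdown line (edgeR adjusted p = 5.85e-09) and 0.86 in the overexpression line (edgeR adjusted p = 4.57e-08). Gclc was measured from 1 coding transcript, which held at least 98.7% of its TPM in every library and shared none of its words.

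Srxn1 encodes sulfiredoxin, which restores over-oxidised peroxiredoxins. It had 114, 115 and 118 CPM in the knockdown libraries, 112, 104 and 116 CPM in the overexpression libraries, and 85.3, 84.8 and 87.7 CPM in the control libraries. The control libraries were the lowest, and the knockdown and overexpression libraries overlapped. Srxn1 was 1.35-fold higher in the knockdown line (log2 0.43 ± 0.05, edgeR adjusted p = 1.09e-05) and 1.29-fold higher in the overexpression line (log2 0.36 ± 0.05, edgeR adjusted p = 0.000112). The overexpression line differed from the knockdown line by -0.07 on the log2 scale (95% interval -0.18 to 0.04). Txnrd1 encodes the cytosolic thioredoxin reductase, a selenoprotein that recharges thioredoxin with electrons from NADPH. It had 567, 570.1 and 545 CPM in the knockdown libraries, 643, 615 and 633 CPM in the overexpression libraries, and 514, 566 and 539 CPM in the control libraries. The overexpression libraries were the highest, and the knockdown and control libraries overlapped. Txnrd1 was 1.17-fold higher in the overexpression line (log2 0.22 ± 0.04, edgeR adjusted p = 0.000733), and in the knockdown line its log2 fold change of 0.06 ± 0.04 was not called (edgeR adjusted p = 0.319, 95% interval -0.03 to 0.14). Set directly against the knockdown line it was 0.17 ± 0.04 higher on the log2 scale in the overexpression line (edgeR adjusted p = 0.00665), a call lost with an offset for average transcript length (0.0572). The main transcript, Txnrd1-201, held 45.4 to 57.3% of Txnrd1 TPM in the knockdown, 47.1 to 53.3% in the overexpression and 45.1 to 47.3% in the control libraries.

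Nqo1 encodes a quinone reductase that is widely used as an indicator of NRF2 activity. It had 8.12, 9.10 and 7.35 CPM in the knockdown libraries, 8.82, 9.38 and 11.2 CPM in the overexpression libraries, and 10.3, 9.49 and 7.49 CPM in the control libraries. The 3 lines overlapped throughout. The log2 fold change of Nqo1 was -0.15 ± 0.17 in the knockdown line (edgeR adjusted p = 0.540, 95% interval -0.51 to 0.21) and 0.11 ± 0.17 in the overexpression line (edgeR adjusted p = 0.710, 95% interval -0.25 to 0.46). A difference as large as that of Gclm lies outside both intervals. One as large as the estimate for Gclc lies just outside the knockdown interval and inside the overexpression interval. The 95% interval of Gclc in the knockdown line, 0.09 to 0.37, overlaps that of Nqo1.

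Hmox1 encodes heme oxygenase, which splits heme into biliverdin, carbon monoxide and iron. It had 133.0, 132.7 and 135 CPM in the knockdown libraries, 157.0, 155.7 and 156.6 CPM in the overexpression libraries, and 115, 105 and 103 CPM in the control libraries. The 3 lines did not overlap: the overexpression libraries were highest, the knockdown libraries in between and the control libraries lowest. Hmox1 was 1.24-fold higher in the knockdown line (log2 0.31 ± 0.05, edgeR adjusted p = 0.000108) and 1.46-fold higher in the overexpression line (log2 0.54 ± 0.05, edgeR adjusted p = 6.62e-07). It was 0.23 ± 0.05 higher on the log2 scale in the overexpression than in the knockdown line (edgeR adjusted p = 0.00252). This order of the lines differed from that of Sirpa, which was lowest in the knockdown line. The coding transcript Hmox1-201 held at least 99.5% of Hmox1 TPM in every library and shared none of its words with other genes.

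Gpx4 encodes the selenoprotein that reduces lipid peroxides in membranes and so blocks ferroptosis, an iron-dependent form of cell death. It had 319, 345 and 334 CPM in the knockdown libraries, 266, 274 and 258 CPM in the overexpression libraries, and 273, 259.8 and 256.45 CPM in the control libraries. The knockdown libraries stood above all others, and the overexpression and control libraries overlapped. Gpx4 was 1.26-fold higher in the knockdown line (log2 0.34 ± 0.04, edgeR adjusted p = 1.46e-05), and its log2 fold change in the overexpression line was 0.02 ± 0.04 (edgeR adjusted p = 0.838, 95% interval -0.08 to 0.11). The overexpression line was 0.32 ± 0.04 below the knockdown line on the log2 scale (edgeR adjusted p = 5.06e-05). Of the 31-base words of Gpx4 38.94%, and of those of its main transcript 74.06%, occur in another gene, chiefly the pseudogene Gpx4-ps2, which had a mean of 5.73 counts beside 5232 for Gpx4. In knockdown replicate 3 the shorter coding transcript Gpx4-207 took 30.4% of Gpx4 TPM, against at most 4.06% in the other 8 libraries. That library also had the highest Gpx4 TPM, 856 against 677 and 721 TPM in the other knockdown libraries, but not the highest CPM. The part of this transcript in the TPM mean of the knockdown line was not tested.

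**Figure D2:**
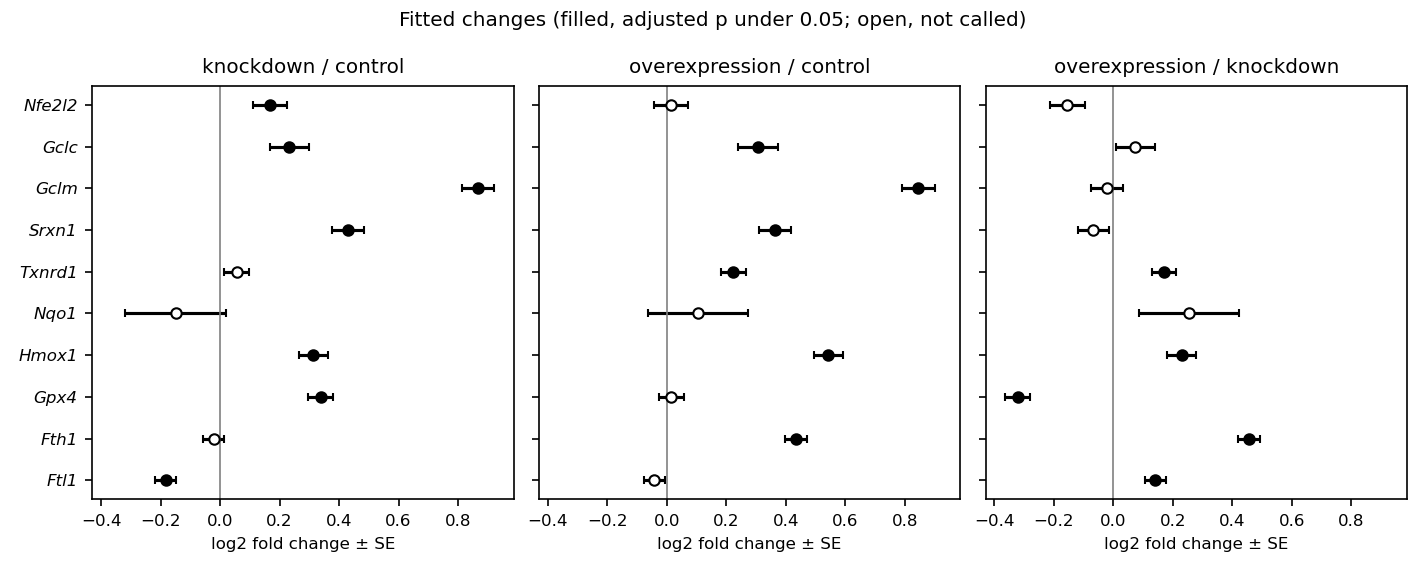
Log2 fold change of each of the 10 genes, with its standard error, for knockdown over control, overexpression over control and overexpression over knockdown; filled points have an edgeR adjusted p under 0.05. Gclm is farthest right in both comparisons with control, Gpx4 is higher in the knockdown line alone and Fth1 in the overexpression line alone, and both of these differ in the direct comparison.

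Fth1, the ferritin heavy chain gene, had 2037, 2132.5 and 2249.9 CPM in the knockdown libraries, 2899, 3033.5 and 2876 CPM in the overexpression libraries, and 2195, 2185 and 2138 CPM in the control libraries. The overexpression libraries stood far above the rest, and the knockdown libraries spanned the control libraries. Fth1 was 1.35-fold higher in the overexpression line (log2 0.43 ± 0.04, edgeR adjusted p = 3.35e-07). In the knockdown line its log2 fold change was -0.02 ± 0.04 (edgeR adjusted p = 0.686, 95% interval -0.10 to 0.06), and the overexpression line was 0.46 ± 0.04 above the knockdown line (edgeR adjusted p = 1.79e-07). Ftl1, the ferritin light chain gene, had 5852.5, 6441 and 5705 CPM in the knockdown libraries, 6525, 6631.5 and 6693 CPM in the overexpression libraries, and 6883, 6779.7 and 6769.5 CPM in the control libraries. The knockdown libraries were the lowest and the most spread, and the overexpression libraries lay just below the control libraries. Ftl1 fell by 0.18 ± 0.04 on the log2 scale in the knockdown line (edgeR adjusted p = 0.000782). In the overexpression line its log2 fold change was -0.04 ± 0.04 (edgeR adjusted p = 0.449, 95% interval -0.12 to 0.03), and it was 0.14 ± 0.04 higher there than in the knockdown line (edgeR adjusted p = 0.0089).

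The ratio of heavy to light chain RNA was taken as Fth1 TPM over Ftl1 TPM. It was 0.369, 0.351 and 0.421 in the knockdown libraries, 0.471, 0.489 and 0.456 in the overexpression libraries, and 0.338, 0.343 and 0.335 in the control libraries. The 3 lines did not overlap, with the overexpression line highest and the control line lowest. The mean ratio was 1.39 times that of the control line in the overexpression line and 1.12 times in the knockdown line. An exact two-sided permutation test gave p = 0.10 for each, unchanged by adjustment over 3 comparisons, which is the smallest p that 3 libraries against 3 allow. In the overexpression line the heavy chain was the called gene of the pair, and in the knockdown line it was the light chain. Fth1 and Ftl1 together took 1.67, 1.78 and 1.67% of all TPM in the knockdown libraries, 1.96, 2.01 and 1.98% in the overexpression libraries, and 1.81, 1.83 and 1.82% in the control libraries.

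Ferritin genes have many processed copies in the mouse genome. Of the 31-base words of Ftl1 64.15% occur in other genes, 33 in number, and 54.43% occur in Ftl1-ps1 alone; of those of the main transcript, Ftl1-201, 94.88% occur in other genes. The 8 of these genes that shared 5% or more of the words summed to 747 counts a library, 0.633% of the 117900 counts of Ftl1. With their counts added, Ftl1 still fell by 0.18 on the log2 scale in the knockdown line (edgeR adjusted p = 0.000891). Fth1 shared 3.24% of its words with other genes over all its transcripts, and Fth1-201, the coding transcript that held 97.1 to 99.8% of its TPM in the 9 libraries, shared 12.9%.

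**Figure D3:**
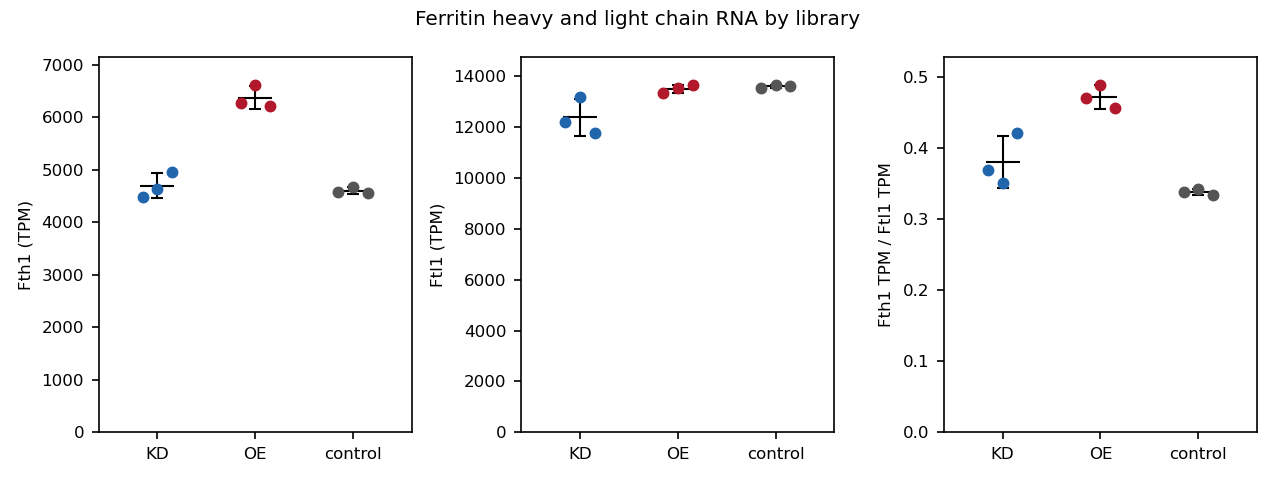
Fth1 in TPM, Ftl1 in TPM and the ratio of the first to the second (vertical axes, from 0) in the knockdown (KD), overexpression (OE) and control libraries; points are libraries, bars means and error bars 1 SD (n = 3 each). Fth1 is highest in the overexpression line, Ftl1 is lowest in the knockdown line, and the ratio is 0.335 to 0.343 in the control libraries and above that in all others.

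Set directly against the knockdown line, 5 of the 10 genes were called in the overexpression line, where 22.1% of all genes were called. Hmox1, Txnrd1, Fth1 and Ftl1 were higher, against 11% of all genes, and Gpx4 was lower, against 11.1%. Nfe2l2, Gclc, Gclm, Srxn1 and Nqo1 were not called between these lines. Nfe2l2 passed the threshold in this comparison without the filter on low counts (edgeR adjusted p = 0.0447), with DESeq2 (adjusted p = 0.048), without knockdown replicate 2 (edgeR adjusted p = 0.0186) and without overexpression replicate 1 (edgeR adjusted p = 0.046).

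The genes whose pattern over the 9 libraries was most like 3 of the members were found by the root mean square difference of centred log2 CPM over 11445 genes. For Nfe2l2 they were Fam208b (0.038), Lama4 (0.038) and Mfsd14a (0.041), beside a spread of 0.098 of Nfe2l2 itself. For Hmox1, with a spread of 0.23, they were Asnsd1 (0.056), Tcf12 (0.059) and Trf (0.059). For Fth1, with a spread of 0.21, they were Mboat1 (0.042), Sema6d (0.047) and Sgk3 (0.055). Mboat1 averaged 15.6 CPM in the knockdown, 22.5 CPM in the overexpression and 15.9 CPM in the control libraries. Tcf12 averaged 311 CPM in the knockdown, 344 CPM in the overexpression and 244 CPM in the control libraries. None of the 9 is another of the 10 genes.

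Other genes of the same pathways were counted from lists, naming those with the lowest adjusted p among the called and giving their log2 fold changes over control. A gene named for 1 line may also have been called in the other. The shares of a list called stand beside those of all genes, which were 35.4% in the knockdown line (18% higher, 17.4% lower) and 24.3% in the overexpression line (13.1% higher, 11.1% lower). Some genes, Slc7a11, Gsta4 and Tfrc among them, stand in more than 1 list, so the shares of the lists are not independent of each other. Of 23 tested further NRF2 targets, 11 were higher and 3 lower in the knockdown line (60.9% called against 35.4%, median 0.21), and 10 were higher and 2 lower in the overexpression line (52.2% against 24.3%, median 0.21). Slc7a11, the cystine importer that feeds glutathione synthesis, rose by 0.99 in the knockdown line and by 0.85 in the overexpression line. Ephx1, an epoxide hydrolase, rose by 0.50 in the knockdown and 0.47 in the overexpression line, and Me1, a source of NADPH, rose by 0.57 in the knockdown and 0.49 in the overexpression line. The glutathione transferase gene Gsta4 fell by 2.42 in the knockdown line. G6pdx, which starts the pentose phosphate pathway, fell by 0.31 in the overexpression line. It was called lower in the knockdown line too (log2 fold change -0.21 to -0.17 under the alternatives). Of 13 NRF2 control genes, 4 were higher and 4 lower in the knockdown line (61.5% called against 35.4%), and 3 were higher and 3 lower in the overexpression line (46.2% against 24.3%). Sqstm1, whose product sequesters KEAP1, rose by 0.37 in the knockdown and 0.15 in the overexpression line, and Nfe2l1, the gene of the related factor NRF1, rose by 0.50 in the knockdown and 0.32 in the overexpression line. Dpp3, another KEAP1 binder, fell by 0.46 in the knockdown and 0.35 in the overexpression line, while Cul3, the scaffold of the KEAP1 ubiquitin ligase, rose by 0.16 in the knockdown line and the kinase gene Gsk3b by 0.16 in the overexpression line.

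Of 25 tested glutathione genes, 5 were higher and 6 lower in the knockdown line (44% called against 35.4%), and 7 were higher and 2 lower in the overexpression line (36% against 24.3%). Beside Slc7a11 and Gsta4, the glutaredoxin gene Glrx3 rose by 0.29 and the transferase gene Gstm1 by 0.53 in the knockdown line. In the overexpression line Slc3a2, the partner of Slc7a11, rose by 0.28, the glutathione reductase gene Gsr by 0.32 and the transferase gene Mgst1 by 0.36. Of 16 thioredoxin and peroxiredoxin genes, 2 were higher and 3 lower in the knockdown line (31.2% called against 35.4%), and 2 were higher and 1 lower in the overexpression line (18.8% against 24.3%), below the shares of all genes. Prdx1 rose by 0.25 in the knockdown and 0.23 in the overexpression line, and Prdx2 fell by 0.50 in the knockdown and 0.37 in the overexpression line. The thioredoxin inhibitor gene Txnip rose by 1.01 and Msra, for methionine repair, fell by 1.68 in the knockdown line, and Prdx6 rose by 0.16 in the overexpression line. Of 8 superoxide and peroxide removal genes 3 were called in each line (37.5%, against 35.4% in the knockdown and 24.3% in the overexpression line). In the knockdown line Oxr1 rose by 0.34, Sod2 by 0.27 and Sod3 by 0.53, and in the overexpression line Sod2 rose by 0.35, Sod1 by 0.19 and the catalase gene Cat fell by 0.22.

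Of 17 tested iron uptake, export and sensing genes, 6 were higher and 2 lower in the knockdown line (47.1% called against 35.4%), and 4 were higher and 1 lower in the overexpression line (29.4% against 24.3%). Slc40a1 rose by 0.91 in the knockdown and 1.09 in the overexpression line, and Tfrc, the transferrin receptor gene, rose by 0.25 in the knockdown and 0.40 in the overexpression line. Cp, which encodes the ferroxidase ceruloplasmin, rose by 1.504 and Pcbp1, an iron chaperone that loads ferritin, fell by 0.47 in the knockdown line. The mitochondrial iron importer gene Slc25a37 rose by 0.39 in the overexpression line. The metalloreductase gene Steap2 fell by 0.29 there but was called higher in the knockdown line, by 0.32 to 0.41 under the alternatives. Of 15 tested heme genes, 5 were higher and 1 lower in the knockdown line (40% called against 35.4%), and 4 were higher and 3 lower in the overexpression line (46.7% against 24.3%). Slc48a1, a heme transporter gene, rose by 0.46 in the knockdown and 0.50 in the overexpression line, and Blvrb, a biliverdin reductase gene, rose by 0.72 in the knockdown and 0.81 in the overexpression line. The porphyrin transporter gene Abcb6 rose by 0.35 in the knockdown line, and the heme synthesis gene Alas1 rose by 0.34 and the exporter gene Abcg2 fell by 0.46 in the overexpression line. Of 13 tested ferroptosis control genes, 5 were higher and 1 lower in the knockdown line (46.2% called against 35.4%), and 7 were higher and none lower in the overexpression line (53.8% against 24.3%). Lpcat3, a phospholipid remodelling gene, rose by 0.67 in the knockdown and 0.39 in the overexpression line, the lipid activation gene Acsl4 rose by 0.39 in the knockdown line and the polyamine gene Sat1 by 0.42 in the overexpression line. With an offset for average transcript length the calls of Cul3, Msra, Sod2, Tfrc, Acsl4, Alas1, Mgst1, Prdx6 and Sod1, and those of Nfe2l1 and Prdx1 in the overexpression line, were lost, and without 1 or another library those of Gsk3b, Prdx6, Sod1 and Sod3. Me1, G6pdx, Gstm1, Sod2 and Abcb6 share 36.89, 23.61, 28.78, 26.73 and 52.07% of their words with other genes. Glrx3, Txnip, Prdx2, Sqstm1 and Prdx1 share 17.58, 17.37, 16.51, 16.41 and 15.42%. Lpcat3, Slc25a37, Sat1, Alas1 and Sod1 share 9.1, 7.7, 6.9, 6.4 and 5.4%. Among genes named above for the knockdown line alone, Glrx3, Gstm1, Acsl4 and Abcb6 were also called higher in the overexpression line. Among those named for the overexpression line alone, Gsk3b, Mgst1 and Sat1 were also called higher in the knockdown line. Apart from that of Abcb6, each of these further calls was lost under at least 1 alternative.

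**Figure D4:**
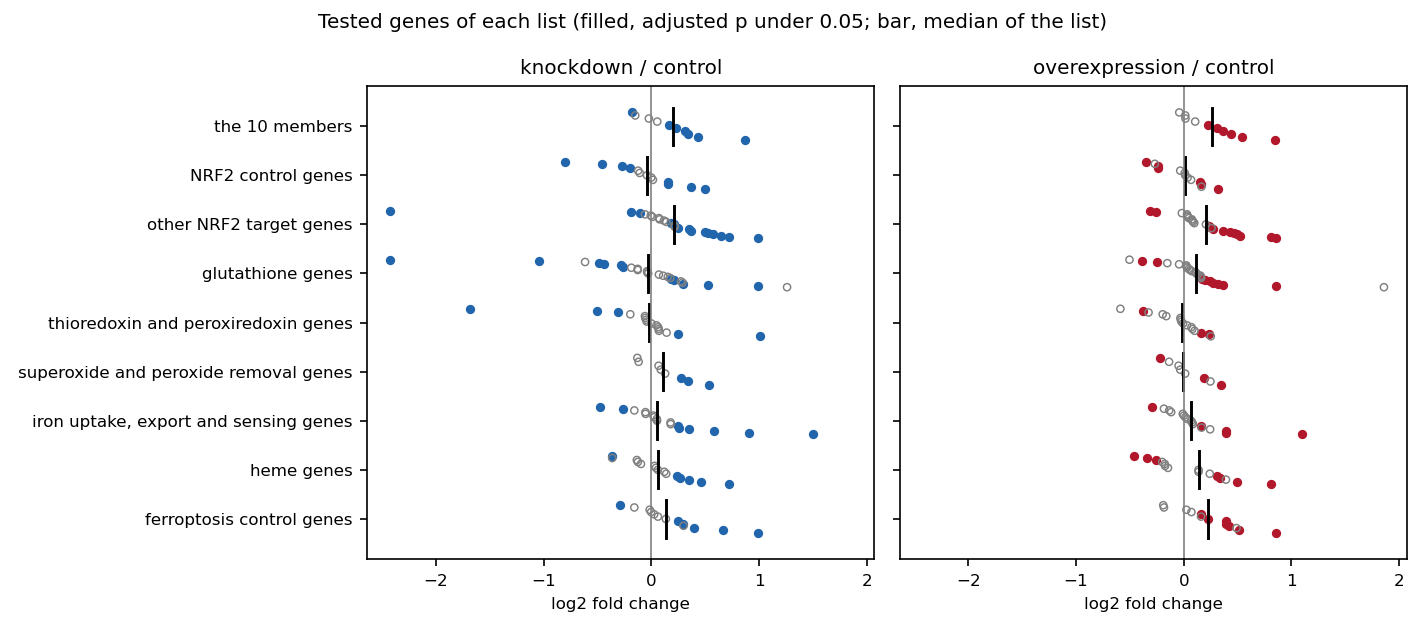
Log2 fold changes of the tested genes of each list (1 point per gene; filled, edgeR adjusted p under 0.05; bars, list medians) for knockdown over control and overexpression over control. The 10 genes described here and the other NRF2 targets have medians between 0.20 and 0.27 in both comparisons, and the NRF2 control genes lie on both sides of 0. The ferroptosis control genes have a median of 0.14 for knockdown and 0.22 for overexpression.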

How the data were processed

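Per the labels' protocols, the mRNA libraries were not strand-specific and were read from both ends over 150 bases, so reads of overlapping genes on opposite strands cannot be separated. The deposited tables hold, per transcript, an estimated count that need not be whole, TPM and an effective length in bases, per the file headers. The submitters' processing notes name Salmon 1.4.0, MultiQC 1.11, DESeq2 1.34.0 and mm39. How reads were trimmed, and which annotation was used, is not given in the sources used here.

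Transcripts were matched to genes by identifier with GENCODE M21 (GRCm38): 137161 of 140789 (97.42%) matched, and the rest, 0.554 to 0.654% of counts, was left out. The authors' estimated counts were summed per gene and rounded, and TPM were summed per gene. Depth was 16400000 to 22400000 counts per library. Replicates of a line differed by more than sampling noise in every pair (chi-square per degree of freedom 4.77 to 11.0). Tests used the quasi-likelihood fit of edgeR 4.0.16 in R 4.3.3, after filterByExpr and TMM scaling, with all 9 libraries in 1 fit and line as the only term; CPM use TMM library sizes. Alternatives used DESeq2 1.42.0, limma-voom 3.58.1, other scalings and filters, a length offset, a replicate block and each library left out. Shared sequence was counted as words of 31 bases. All 10 genes are named; from each list the 4 called genes with the lowest adjusted p in each comparison with control are named, except for 1 gene of the heme list that is not reported here. The members and lists were chosen with earlier results of these data known.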

Additional observations from a re-analysis of the deposited data

How the results depend on the processing

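The number of the 10 genes called was 6 to 7 in the knockdown line, 6 in the overexpression line and 4 to 6 between the overexpression and knockdown lines under all alternatives, and 5 to 6 in the last with 1 library left out. Across all genes, an offset for average transcript length gave 2794 calls in place of 4619 in the knockdown line, 1577 in place of 3172 in the overexpression line and 1423 in place of 2887 between the overexpression and knockdown lines. With it, calls of higher genes in the overexpression line numbered 6 in place of 10 among further NRF2 targets, 3 in place of 7 among glutathione genes, 2 in place of 4 among iron genes, 4 in place of 7 among ferroptosis genes, and 0 in place of 2 among thioredoxin and among superoxide genes. Calls of lower genes there numbered 1 in place of 3 among NRF2 control and among heme genes, and 1 in place of 2 among glutathione genes. In the knockdown line calls of higher genes numbered 2 in place of 5 among ferroptosis genes and 3 in place of 5 among heme genes, and calls of lower genes 2 in place of 4 among NRF2 control genes, 1 in place of 2 among iron genes, and 0 in place of 1 among heme and among ferroptosis genes. The cause was not tested. Leaving out each library in turn gave 3885 to 4555 calls in the knockdown line, 2440 to 3297 in the overexpression line and 2241 to 2867 between the overexpression and knockdown lines.

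Of 600 values of the 10 genes under an alternative 581 kept their direction and side of the threshold, 6 lost a call, 4 gained one and 9 turned their direction. The lost and gained calls are those of Nfe2l2 and Txnrd1 given with their values. Every turned value belongs to a comparison in which that gene was not called. For overexpression over knockdown, Gclm was 0.11 on the log2 scale with the length offset, and with 1 library left out its log2 fold change ran from -0.058 to 0.024. With 1 library left out, the log2 fold changes for overexpression over control ran from -0.028 to 0.048 for Nfe2l2, from -0.022 to 0.206 for Nqo1 and from -0.0051 to 0.0448 for Gpx4. That of Fth1 for knockdown over control ran from -0.056 to 0.015. The alternatives that added the counts of sequence copies, or left out Gclm-202, were chosen after seeing the data. They changed only the counts of Ftl1 and Gpx4, or of Gclm, so values of the other genes under them could hardly move. No scaling moved the median of all genes by over 0.1. The 600 values leave out ratios of mean TPM, some of which differed in size from the fitted changes. For knockdown over control the log2 ratio of TPM was 0.60 for Srxn1, 0.47 for Gpx4 and 0.26 for Nfe2l2. The fitted values were 0.43, 0.34 and 0.17. For overexpression over knockdown it was -0.24 for Srxn1, 0.08 for Gclm and 0.20 for Hmox1. The fitted values there were -0.07, -0.02 and 0.23.

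Replicate numbers did not pair the libraries: deviations of same-numbered libraries correlated between -0.19 and 0.15 over 9 pairs, 1 of them over 0.1, and those of other numbers between -0.19 and 0.20. With a replicate block 4423 genes were called in the knockdown line, 2957 in the overexpression line and 2712 between the overexpression and knockdown lines, and 7, 6 and 5 of the 10. Nqo1 had the fewest counts of the 10 genes, 454 over the knockdown, 541 over the overexpression and 477 over the control libraries, and the widest intervals; the part of depth in their width was not tested.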
